A study of Homo sapiens with 6 samples.

Results

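Genes of the mitotic spindle, the kinetochore and the spindle checkpoint were compared between MDA-MB-231-hOSM cells and their controls, MDA-MB-231-hC. The parental line, MDA-MB-231, comes from a human breast cancer without estrogen, progesterone or amplified HER2 receptors. MDA-MB-231-hOSM carries pUNO1-hOSM, which expresses human oncostatin M (OSM), and MDA-MB-231-hC carries the pUNO1 vector without an insert. Both lines received 2 μg of vector, were kept stably transfected in blasticidin at 10 μg/mL and grew in parallel. RNA was taken from 3 passages that did not follow each other. They are here called sets 1, 2 and 3 after the replicate numbers in the sample labels, and arrays of both lines with the same number were taken as a set. The 6 Human Clariom S arrays, 3 per line, gave 1 log2 signal for each of 21448 transcript clusters. Separate transfections are not stated, so an effect of OSM and a difference that arose during selection cannot be told apart. The members are 54 genes named by function, in a choice made with earlier results of these data known. All 54 were on the array, each with 1 transcript cluster, out of 17687 genes with a symbol. They were placed in 7 groups by the role of the protein.

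To divide, a cell condenses its chromosomes with condensin and topoisomerase II, and builds on each centromere a kinetochore, the protein plate that binds microtubules. Aurora and Polo-like kinases and kinesin motors assemble the spindle, and the checkpoint holds back anaphase until every kinetochore is attached. The anaphase-promoting complex then has securin and cyclin B degraded, separase opens cohesin, and the cell is cleaved. Transcription of most of these genes peaks in G2 and mitosis and is low in resting cells. Their promoters are known for a short element, the cell cycle genes homology region (CHR), which the DREAM complex binds to repress them in resting cells and MYBL2 and FOXM1 complexes use to activate them, often with an upstream CCAAT box bound by NF-Y.

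Most genes of the mitotic machinery had lower signals in MDA-MB-231-hOSM, by less than 2-fold. Of the 54 genes, 40 fell in MDA-MB-231-hOSM, 0 rose and 14 did not pass. "Fell" and "rose" here mean an adjusted p under 0.1 from limma, fitted over all transcript clusters with the set as a block and adjusted by the method of Benjamini and Hochberg, and 10.4% of all transcript clusters passed in the lower and 9.22% in the higher direction. In either direction 19.7% passed. At an unadjusted p under 0.05, 45 members were lower and 0 higher in limma, as were 15.7% and 13.2% of all transcript clusters. The median log2 fold change of the 54 genes was −0.55, against −0.03 for all transcript clusters, and 52 of 54 were below 0, as were 53.7% of all. The 40 genes that fell lay at 30.1% to 74.1% of the signal in MDA-MB-231-hC, which is 1.35-fold to 3.32-fold lower, with standard errors from 0.12 to 0.20 on the log2 scale. Only CENPM, KIF15 and CDCA3 were also over 2-fold lower, the study's limit for a changed gene, which 1.54% of all transcript clusters passed in the lower direction, 2.6% in the higher and 4.14% in either. A limit of 1.5-fold was passed by 24 in the lower direction, and by 5.72% of all. Fewer cells in mitosis and less RNA per dividing cell cannot be told apart in such bulk samples.

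**Figure D1:**
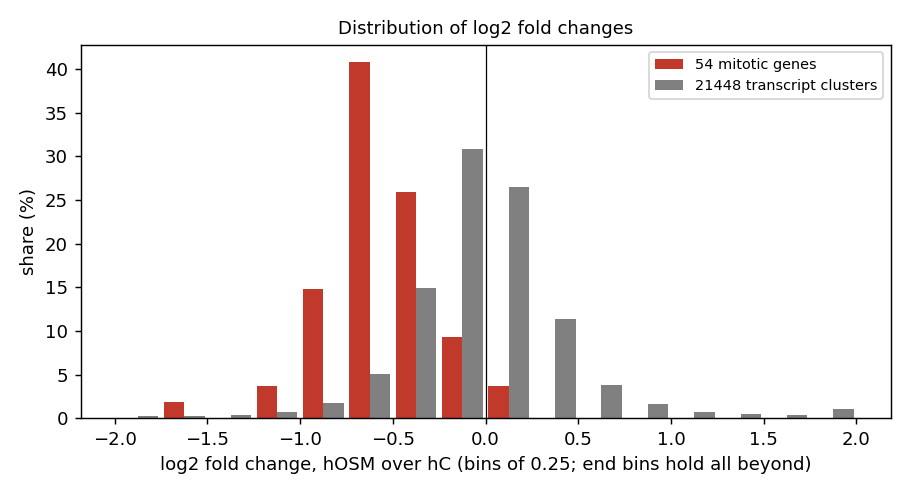
Share (%) of the 54 mitotic genes (red) and of all 21448 transcript clusters (grey) in bins of the log2 fold change, MDA-MB-231-hOSM over MDA-MB-231-hC. The mitotic genes center on −0.55 and all transcript clusters on −0.03, and 40.7% of the mitotic genes against 5.07% of all lie between −0.75 and −0.5.

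These p-values rest on few arrays. When both arrays of a set were left out, 11 (without set 1), 8 (without set 2) and 2 (without set 3) of the 54 genes passed, all of them among the 40, while 2.72%, 1.86% and 1.38% of all transcript clusters passed in the lower direction. The median log2 fold change was then −0.60, −0.58 and −0.48, and 54, 53 and 52 genes were below 0. The genes that still passed without set 3 were CENPH and CENPM. When variances were not shared across transcript clusters, 0 of the 54 genes passed after adjustment. In that fit 39 transcript clusters passed in all, and 0.103% of all transcript clusters passed in the lower direction.

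The arrays were otherwise alike in scale, with medians between 6.82 and 6.85. OSM had log2 signals of 14.80 in MDA-MB-231-hOSM and 5.14 in MDA-MB-231-hC on average (adjusted p = 1.75e-06 from limma). VIM, CD44, EGFR, AXL and CAV1, expected in this line, averaged 11.7 to 16.3 over the arrays, and ESR1, PGR and CDH1, expected to be absent, averaged 3.51 to 4.44. EPCAM, an epithelial adhesion molecule, was also expected to be low but was present. It fell in MDA-MB-231-hOSM (mean log2 signals of 8.53 against 9.63, adjusted p = 0.0525 from limma). ERBB2, the HER2 gene, was expected to be low too and was not measured. Of 7 fibroblast markers 1 passed, PDGFRB, which was lower in MDA-MB-231-hOSM with mean log2 signals of 4.08 against 4.60. Both means lay below the background guide given below. By sign 4 of the 7 were lower and 3 higher, among them DCN (log2 fold change 0.87) and LUM (0.56), which did not pass. Of 6 leukocyte markers 0 passed in limma, 0 of them at an unadjusted p under 0.05. The brightest fibroblast marker, COL1A2, averaged 8.8 over the arrays, and the brightest leukocyte marker, CD68, 12.4. The mean of the fibroblast markers was 5.45 to 5.53 on arrays of MDA-MB-231-hOSM and 5.33 to 5.42 on those of MDA-MB-231-hC, and their part in the results was not tested. All 54 mitotic genes averaged above 5.78, the 95th percentile of 348 olfactory receptor transcript clusters taken as a guide to background, with means from 7.69 for CDCA3 to 15.6 for BUB3 and a median of 12.6.

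The promoters of these genes are given first, since the members share the elements named above. The RefSeq table of GRCh38.p14 holds a promoter for 45 of the 54 genes, each running from 250 bases before to 50 bases after the transcription start, and for genes with several starts the first entry of the table was read. Both strands were searched for the CHR letters TTTGAA and TTCGAA and for CCAAT, whose reverse complement is ATTGG. No CHR word contains CCAAT or ATTGG. A CHR match lay in 36 of 45 promoters (80.0%) and in 16.6% of all 27305, and a CCAAT match in 33 (73.3%) and in 35.7% of all. Both were present in 27 (60.0%), against 6.58% of all. The CHR matches gathered at the start, within 50 bases on either side of it in 30 of 45 promoters (66.7%), against 5.05% of all.

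The promoters below are those of KIF15 and CDCA3, which were over 2-fold lower, of NUSAP1, just short of that limit, and of PLK1 and CENPA, which did not pass. RefSeq gave no promoter here for CENPM, also over 2-fold lower. Nor did it for CENPH, BIRC5, CDCA2, TTK, TPX2, UBE2C, AURKA and BUB3. Capitals mark CHR and CCAAT matches on either strand. They stand at chr3:44761544-44761843 (KIF15, plus strand), chr12:6851237-6851536 (CDCA3, minus strand), chr15:41332631-41332930 (NUSAP1, plus strand), chr16:23678639-23678938 (PLK1, plus strand) and chr2:26785806-26786105 (CENPA, plus strand), in GRCh38.p14, and each is written from upstream to downstream of its gene.
KIF15: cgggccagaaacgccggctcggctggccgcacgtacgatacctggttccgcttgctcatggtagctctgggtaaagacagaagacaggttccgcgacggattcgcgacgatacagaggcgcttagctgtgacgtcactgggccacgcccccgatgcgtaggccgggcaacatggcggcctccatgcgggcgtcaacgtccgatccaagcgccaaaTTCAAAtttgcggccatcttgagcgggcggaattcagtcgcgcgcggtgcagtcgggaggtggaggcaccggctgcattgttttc
CDCA3: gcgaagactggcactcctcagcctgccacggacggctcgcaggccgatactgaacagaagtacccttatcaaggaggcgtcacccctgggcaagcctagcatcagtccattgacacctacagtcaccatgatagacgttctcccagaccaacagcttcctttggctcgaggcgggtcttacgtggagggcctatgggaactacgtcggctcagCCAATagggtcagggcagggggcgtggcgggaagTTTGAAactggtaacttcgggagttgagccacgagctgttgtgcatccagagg
NUSAP1: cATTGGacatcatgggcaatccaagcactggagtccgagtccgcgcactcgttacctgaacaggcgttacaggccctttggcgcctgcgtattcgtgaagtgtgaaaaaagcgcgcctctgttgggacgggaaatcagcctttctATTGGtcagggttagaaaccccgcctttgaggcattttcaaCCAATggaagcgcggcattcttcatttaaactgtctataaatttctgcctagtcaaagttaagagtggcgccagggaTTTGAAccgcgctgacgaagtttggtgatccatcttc
PLK1: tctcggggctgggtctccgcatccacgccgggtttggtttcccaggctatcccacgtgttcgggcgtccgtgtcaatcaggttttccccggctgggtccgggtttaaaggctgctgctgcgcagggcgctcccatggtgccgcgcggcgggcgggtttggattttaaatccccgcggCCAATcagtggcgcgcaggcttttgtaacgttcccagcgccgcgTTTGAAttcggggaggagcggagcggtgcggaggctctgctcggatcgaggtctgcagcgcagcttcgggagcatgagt
CENPA: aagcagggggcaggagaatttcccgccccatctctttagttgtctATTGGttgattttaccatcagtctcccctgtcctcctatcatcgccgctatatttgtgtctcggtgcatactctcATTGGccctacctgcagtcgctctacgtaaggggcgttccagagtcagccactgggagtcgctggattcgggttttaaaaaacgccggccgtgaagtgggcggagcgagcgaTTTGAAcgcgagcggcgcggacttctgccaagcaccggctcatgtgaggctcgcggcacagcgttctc

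With the first transcribed base as 0, the CHR match began at −35 in KIF15, −3 in CDCA3, 13 in NUSAP1, −29 in PLK1 and −18 in CENPA. KIF15 had no CCAAT match in this window. Of the 36 genes with a CHR match 26 fell, with a median log2 fold change of −0.54, and of the 9 without one 7 fell, with a median of −0.67. Genes without a promoter, CENPM among them, are in neither count. In the lists described below, a CHR match lay in 4 of 6 promoters of mitotic cyclins and CDK1 (66.7%). It lay in 17 of 30 of further spindle, centrosome and cytokinesis genes (56.7%) and 11 of 31 of further kinetochore and centromere genes (35.5%). The shares were 7 of 27 for cohesin, condensin II and the anaphase-promoting complex (25.9%), 2 of 17 for regulators of mitotic transcription (11.8%) and 3 of 36 for DNA replication genes (8.33%). None of this was tested, and a match describes letters and does not show that a factor was bound.

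**Figure D2:**
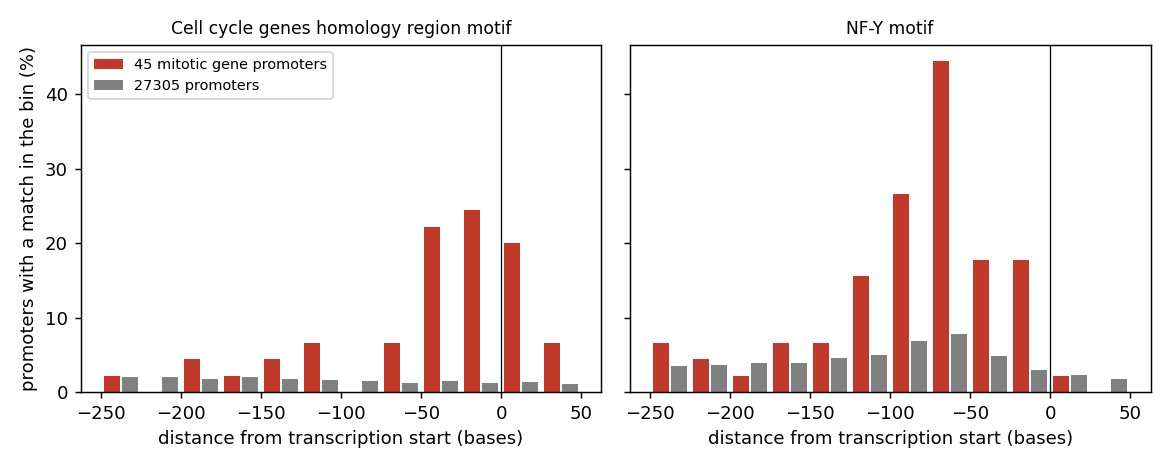
Share (%) of promoters with a match to the cell cycle genes homology region motif (left) or the NF-Y motif (right) in bins of 25 bases around the transcription start, for 45 mitotic gene promoters (red) and all 27305 promoters (grey). CHR matches of the mitotic genes are most frequent from 25 bases before the start up to it, where 24.4% of them and 1.22% of all promoters have one, and NF-Y matches from 75 to 51 bases before it, with 44.4% against 7.87%.

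Of 12 kinetochore and centromere genes, 8 fell and 4 did not pass (median log2 fold change −0.68). CENPM, a subunit of the constitutive centromere network that links the centromere to the outer kinetochore, was the mitotic gene with the lowest log2 fold change. Its log2 signals were 8.99, 8.81 and 8.74 in MDA-MB-231-hOSM and 10.47, 10.58 and 10.68 in MDA-MB-231-hC, in the order of the sets. The groups were far apart, at 3.32-fold lower (log2 fold change −1.73 with an SE of 0.14 and an adjusted p of 0.00122 in limma). CENPH, of the same network, had 9.43, 9.48 and 9.43 in MDA-MB-231-hOSM against 10.44, 10.39 and 10.44 in MDA-MB-231-hC. Its decrease of 1.97-fold was nearly equal in all sets and just under the limit (SE 0.12, adjusted p = 0.00516). CENPI of this network also fell (1.60-fold lower), whereas CENPK (log2 fold change −0.24, adjusted p = 0.356) and CENPN (0.07, adjusted p = 0.817) did not pass.

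The Ndc80 complex is the rod that grips the microtubule end, and 3 of its 4 subunits fell. SPC25 had 9.21, 9.28 and 8.95 in MDA-MB-231-hOSM and 10.07, 9.99 and 10.31 in MDA-MB-231-hC, a decrease of 1.97-fold (adjusted p = 0.0151). NUF2 was 1.90-fold lower (adjusted p = 0.0153) and SPC24 1.59-fold lower (adjusted p = 0.0356). NDC80 itself had a log2 fold change of −0.29 and did not pass (adjusted p = 0.177), although its arrays did not overlap. ZWINT, which recruits the checkpoint protein ZW10 to the outer kinetochore, was 1.80-fold lower (adjusted p = 0.00953), and CENPF, a large kinetochore protein of G2 cells, 1.52-fold lower. CENPA, the histone H3 variant that marks the centromere, had 10.65, 10.62 and 10.38 in MDA-MB-231-hOSM and 10.35, 10.43 and 10.66 in MDA-MB-231-hC. Its groups overlapped and it was higher in MDA-MB-231-hOSM in sets 1 and 2 and lower in set 3 (log2 fold change 0.07, SE 0.15, adjusted p = 0.800).

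**Figure D3:**
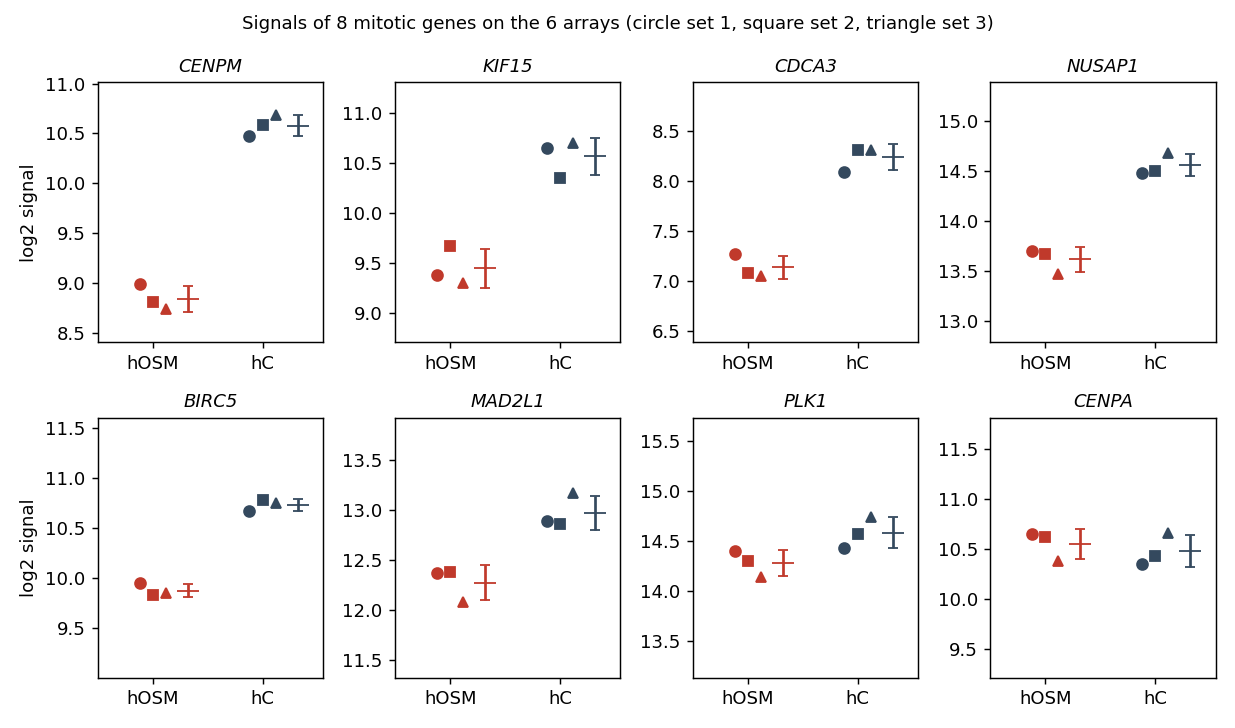
Log2 signal of 8 mitotic genes on each array, MDA-MB-231-hOSM left of MDA-MB-231-hC, with circles, squares and triangles for sets 1, 2 and 3 and the mean ± SD (n = 3) beside them. All panels span the same range of log2 signal. CENPM, KIF15 and CDCA3 are over 2-fold lower in MDA-MB-231-hOSM, NUSAP1, BIRC5 and MAD2L1 are lower by less, PLK1 did not pass and the groups of CENPA overlap.

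All 5 checkpoint genes were lower in MDA-MB-231-hOSM in every set, as were 27.8% of all transcript clusters, and 4 passed. MAD2L1, which encodes the MAD2 protein that blocks CDC20, had 12.37, 12.38 and 12.08 in MDA-MB-231-hOSM and 12.89, 12.86 and 13.17 in MDA-MB-231-hC. The groups were separate and the difference was largest in set 3 (1.62-fold lower, SE 0.16 on the log2 scale, adjusted p = 0.0410). BUB1, a kinase that places checkpoint proteins on the kinetochore, was 1.60-fold lower (adjusted p = 0.0515), TTK, the MPS1 kinase that starts checkpoint signaling, 1.47-fold lower (adjusted p = 0.0357), and BUB1B, the BUBR1 subunit of the inhibitor complex, 1.45-fold lower (adjusted p = 0.0438). BUB3, their common partner, was the brightest member, with 15.59, 15.58 and 15.57 against 15.70, 15.71 and 15.73. Its log2 fold change of −0.13 did not pass (adjusted p = 0.502).

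Of 10 spindle motors, 8 fell and 2 did not pass (median log2 fold change −0.50). KIF15, a plus-end motor that can stand in for KIF11 in keeping the spindle bipolar, had 9.38, 9.67 and 9.30 in MDA-MB-231-hOSM and 10.65, 10.35 and 10.70 in MDA-MB-231-hC. It was 2.17-fold lower (SE 0.17 on the log2 scale, adjusted p = 0.0118). It did not pass without set 1 (log2 fold change −1.04, adjusted p = 0.112) or without set 3 (−0.98, adjusted p = 0.138). KIF11, the tetrameric motor Eg5 that pushes the spindle poles apart, was 1.67-fold lower (adjusted p = 0.0205), and CENPE, which carries chromosomes to the spindle equator, 1.65-fold lower (adjusted p = 0.0431). KIF4A, a chromosome-bound motor, was 1.52-fold lower, and KIF23, the motor of the central spindle, KIF14, KIF20B and KIF2C, which depolymerizes microtubules, 1.37-fold to 1.41-fold lower. KIF20A (log2 fold change −0.38, adjusted p = 0.160) and KIF18A (−0.25, adjusted p = 0.386) did not pass. KIF18A, which dampens chromosome movements, was higher in MDA-MB-231-hOSM in set 1 by 0.17 and lower in sets 2 and 3.

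Of 7 genes of spindle assembly and cytokinesis, 6 fell. NUSAP1, a microtubule-bundling protein, had 13.70, 13.67 and 13.47 in MDA-MB-231-hOSM and 14.48, 14.50 and 14.68 in MDA-MB-231-hC. It was 1.92-fold lower, with wide separation of the groups (SE 0.14 on the log2 scale, adjusted p = 0.0108). ASPM, a spindle pole protein, was 1.61-fold lower (adjusted p = 0.0345). ANLN, the scaffold of the contractile ring, ECT2, which activates RhoA there, PRC1, which bundles the central spindle, and TPX2, the activator of Aurora A, were 1.41-fold to 1.49-fold lower. DLGAP5, a spindle-stabilizing protein, did not pass (log2 fold change −0.36, adjusted p = 0.130).

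Of 7 mitotic kinases, chromosomal passenger genes and CDCA3, 4 fell and 3 did not pass. CDCA3, known as a trigger of mitotic entry that promotes degradation of WEE1, had 7.27, 7.08 and 7.05 in MDA-MB-231-hOSM and 8.09, 8.31 and 8.31 in MDA-MB-231-hC. It was 2.15-fold lower (SE 0.14 on the log2 scale, adjusted p = 0.00627) and was the dimmest member. It did not pass without set 3 (log2 fold change −1.03, adjusted p = 0.107). The chromosomal passenger complex corrects faulty attachments. BIRC5, its survivin subunit, had 9.95, 9.83 and 9.85 in MDA-MB-231-hOSM and 10.67, 10.78 and 10.75 in MDA-MB-231-hC, 1.81-fold lower with little spread (adjusted p = 0.00962). INCENP, its scaffold, was 1.54-fold lower and AURKB, its kinase, 1.37-fold lower (adjusted p = 0.0564), while CDCA8, the borealin subunit, did not pass (log2 fold change −0.38, adjusted p = 0.168).

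PLK1 and AURKA, kinases of spindle pole maturation, did not pass. PLK1, Polo-like kinase 1, had 14.40, 14.30 and 14.14 in MDA-MB-231-hOSM and 14.43, 14.57 and 14.74 in MDA-MB-231-hC. The difference was −0.03 in set 1 and −0.60 in set 3 (log2 fold change −0.30, SE 0.15, adjusted p = 0.243). AURKA, Aurora kinase A, overlapped between the groups, with 14.83, 14.58 and 14.56 against 14.61, 14.90 and 14.89 (log2 fold change −0.14, adjusted p = 0.588). Whether these genes differ in response from the members that fell was not tested.

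Of 8 condensin and chromosome genes, 7 fell. For all 8 every array of MDA-MB-231-hOSM lay below every array of MDA-MB-231-hC, as for 27.7% of all transcript clusters. Condensin I, the ring complex that compacts mitotic chromosomes, had 4 of 5 subunits that fell. NCAPH, the subunit that closes the ring, had 12.66, 12.75 and 12.39 in MDA-MB-231-hOSM and 13.41, 13.30 and 13.65 in MDA-MB-231-hC. It was 1.81-fold lower (SE 0.17 on the log2 scale, adjusted p = 0.0259). SMC4 and NCAPG were 1.48-fold and 1.44-fold lower and SMC2 1.38-fold lower, while NCAPD2 did not pass (log2 fold change −0.39, adjusted p = 0.109). TOP2A, which untangles sister DNA, was 1.51-fold lower (adjusted p = 0.0280). MKI67, the Ki-67 proliferation antigen, had 14.14, 14.12 and 14.06 in MDA-MB-231-hOSM and 14.50, 14.53 and 14.59 in MDA-MB-231-hC, the smallest decrease among the 40 genes that fell (1.35-fold, adjusted p = 0.0685). CDCA2, which brings protein phosphatase 1 to chromatin, was 1.88-fold lower on average (adjusted p = 0.0382) but its difference was −0.33 on the log2 scale in set 1 and −1.33 in set 3.

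Of 5 genes of anaphase and cohesion release, 3 fell. PTTG1, securin, had 11.89, 11.92 and 11.87 in MDA-MB-231-hOSM and 12.57, 12.57 and 12.61 in MDA-MB-231-hC, a nearly constant difference over the sets (1.61-fold lower, SE 0.12 on the log2 scale, adjusted p = 0.0173). CDCA5, the cohesin protector sororin, was 1.54-fold lower (adjusted p = 0.0386) and UBE2C, the E2 enzyme of the anaphase-promoting complex, 1.40-fold lower (adjusted p = 0.0804). CDC20, the activator of that complex, had 13.47, 13.26 and 13.03 in MDA-MB-231-hOSM and 13.56, 13.81 and 14.03 in MDA-MB-231-hC. Its arrays did not overlap but the difference varied widely over the sets, and it did not pass (log2 fold change −0.55, SE 0.19, adjusted p = 0.115). ESPL1, separase, had a log2 fold change of −0.17 (adjusted p = 0.407).

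The size of the difference depended on the set. The median difference of the 54 genes, MDA-MB-231-hOSM minus MDA-MB-231-hC, was −0.43 in set 1, −0.47 in set 2 and −0.71 in set 3, against −0.04, −0.03 and −0.02 for all transcript clusters. The lowest of the 3 differences was that of set 3 for 50 of 54 genes, as it was for 31.9% of all transcript clusters. In set 3 all 54 genes were lower in MDA-MB-231-hOSM, in set 2 51 and in set 1 50. Over all sets 49 genes were lower each time (27.8% of all transcript clusters), and for the same number every array of MDA-MB-231-hOSM lay below every array of MDA-MB-231-hC (27.7% of all), against 0 genes the other way round (22.2% of all). The exceptions by set were CENPA, CENPN, CENPK, KIF18A and AURKA. The deposited arrays of a set are mirror images around the group means, so a move of either line in set 3 cannot be told apart from a move of the other, and the SDs are nearly the same in both lines. For the same reason the counts by set and by array are nearly the same condition, and neither supports the other. Wherever arrays are said not to overlap, this adds little to a difference of the same sign in every set.

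**Figure D4:**
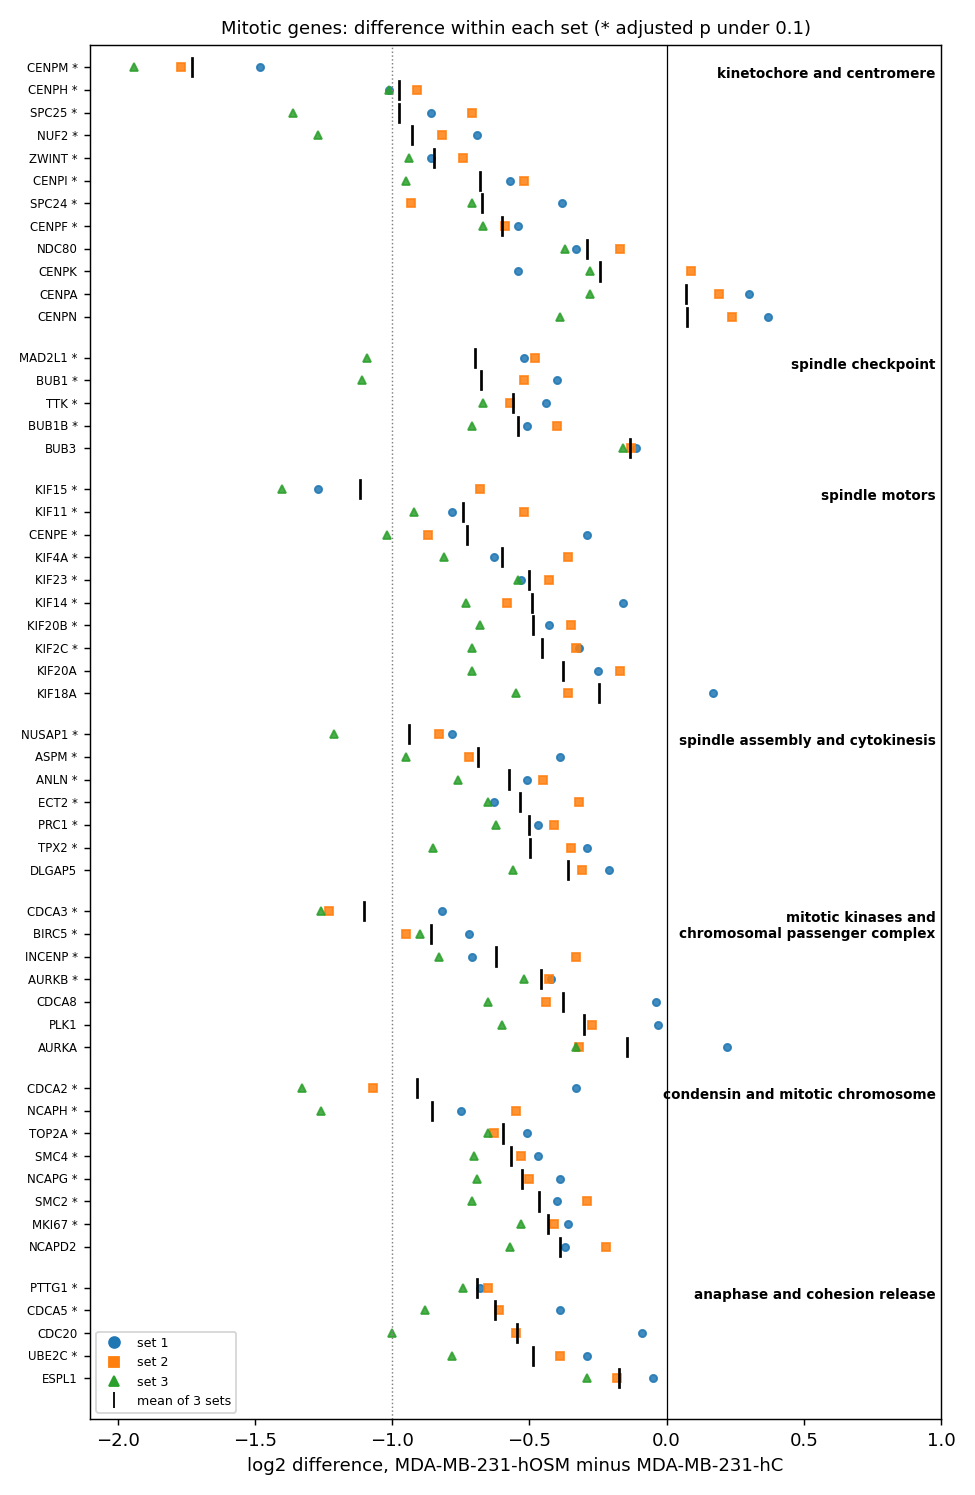
Difference in log2 signal, MDA-MB-231-hOSM minus MDA-MB-231-hC, for each of the 54 genes in sets 1 (circles), 2 (squares) and 3 (triangles), with the mean of the sets (bar), by role. Asterisks mark the 40 genes with an adjusted p under 0.1, the dotted line marks 2-fold, and the triangles of set 3 lie farthest left for 50 genes.

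Brighter genes had somewhat smaller decreases. Across the 54 genes, which share the same 6 arrays and are not independent, Pearson's r between mean signal and log2 fold change was 0.39 and Spearman's rho was 0.30. The 3 genes over 2-fold had mean signals of 7.69 to 10.0, below the members' median of 12.6, and the part of signal level in this was not tested. With the dimmest transcript clusters left out of the count, 13.5% of the remaining 14295 passed in the lower direction, 2.2% with the 2-fold limit.

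Other genes of mitosis, from lists of which 94 were measured, gave 45 that fell and 2 that rose. Of 32 further kinetochore and centromere genes, 16 fell, 2 rose and 14 did not pass (median log2 fold change −0.43), with CENPU 2.27-fold lower. The 2 that rose were NDEL1, 1.37-fold higher, and CENPT, whose mean log2 signals of 5.65 and 4.95 lay below the background guide of 5.78 in both lines, so no fold is given. Of 31 further genes of the spindle, centrosome and cytokinesis, 18 fell and 13 did not pass (median −0.60). PSRC1, a microtubule-stabilizing protein, was 2.18-fold lower and the chromokinesin KIF22 2.12-fold lower. Of 31 genes of cohesin, condensin II and the anaphase-promoting complex, 11 fell and 20 did not pass (median −0.32), with UBE2S, the E2 enzyme that extends ubiquitin chains on its targets, 2.29-fold lower.

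Values of the nearest gene groups are given beside these. Of 42 DNA replication genes 33 fell (median −0.68), with set medians of −0.62, −0.61 and −0.82, and GINS4 of the replicative helicase was 3.51-fold lower. Of 6 genes of mitotic cyclins and CDK1, 5 fell and 1 did not pass (median −0.61). CDK1, the kinase of mitotic entry, was 1.74-fold lower (adjusted p = 0.0238), whereas its partner CCNB1 had 13.68, 13.56 and 13.37 in MDA-MB-231-hOSM and 13.48, 13.65 and 13.83 in MDA-MB-231-hC and did not pass (adjusted p = 0.673). Of 21 regulators of mitotic transcription, 10 fell and 4 rose. The activators MYBL2 and FOXM1 were 2.50-fold (adjusted p = 0.00860) and 1.75-fold lower (adjusted p = 0.0126), and E2F8 and E2F1 were 2.97-fold and 2.05-fold lower. CDKN1A, the CDK inhibitor p21, had 10.17, 10.67 and 10.48 in MDA-MB-231-hOSM and 9.17, 8.62 and 8.73 in MDA-MB-231-hC, 3.03-fold higher with no overlap (adjusted p = 0.00694). Genes for subunits of the DREAM complex moved in both directions. E2F4 (log2 fold change 0.78, adjusted p = 0.0201), TFDP2 (0.57) and E2F5 (0.41) were higher, RBL1 (−0.72, adjusted p = 0.0321), LIN54 (−0.55), LIN52 (−0.54), LIN9 (−0.47) and RBBP4 (−0.41) were lower, and LIN37, RBL2 and TFDP1 did not pass.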

How the data were processed

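Log2 signals of 6 Human Clariom S arrays, 3 of MDA-MB-231-hOSM and 3 of MDA-MB-231-hC, were analyzed. The authors deposited log2 values per transcript cluster, made by RMA in the Transcriptome Analysis Console 4.0 as the submitters' notes name it. RMA corrects background, equalizes arrays and summarizes probes, which can compress large changes. The variant of RMA is not given in the sources used here, nor is a genome build. The number of arrays limits precision. The platform annotation named 17709 transcript clusters with 1 gene each, 0 with several and left 3739 unnamed. Of several transcript clusters of a gene the one with the highest mean was kept, and each member had 1.

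All 21448 transcript clusters were fitted in limma 3.58.1 (R 4.3.3; lmFit and eBayes) with the line and the set as a block, with Benjamini-Hochberg adjustment, adjusted p under 0.1, and the study's 2-fold limit where stated. The labels number the replicates of each line, arrays of the same number were taken as a set, and the lines grew in parallel. Deviations of a set's arrays from their group means correlated at −0.993, −0.995 and −0.992, so set means hardly vary in the deposited values (median SD 0.00764, against 0.225 for the differences), and the paired fit was used. P-values measure the spread over the sets of the difference between the lines. They may leave out part of the variation between passages, which the deposited set means hardly hold. The fit was first tested on simulated data with planted changes over the 2-fold limit. That test does not show how well smaller changes, such as those of most members, are found.

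The members and lists were chosen with earlier results of these data known. Genes were named by rule, namely members over 2-fold, the 2 highest and 2 lowest log2 fold changes of each of 7 groups, up to 4 called genes in each other list, and OSM, CCNB1, CDK1, CDKN1A and FOXM1. Other members and CENPT, NDEL1, PDGFRB, DCN, LUM, COL1A2, CD68, EPCAM and the DREAM subunits were named after their values were seen. The alternatives were no block, quantile normalization, median centring, an eBayes fit with a trend and robust variances, a fit without moderation, a test without the 7153 dimmest transcript clusters, Tukey biweight fold changes, other thresholds and each set left out. Promoters were read from RefSeq (GRCh38.p14). Motifs were counted without a test.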

Additional observations from a re-analysis of the deposited data

How the results depend on the processing

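The direction of the mitotic genes held in the settings tried, and the number that passed did not. With the set as a block 40 genes fell. With no block in the model 49 fell, 3 of them over 2-fold, while the share of all transcript clusters that fell was 26.6%, against 10.4% with the block, and 893 transcript clusters were called over 2-fold, against 888. But set means hardly vary in the deposited values, and without the block they count as part of the residual spread, which makes that spread too small. With no moderation 0 fell, 0 of them over 2-fold, and 11 transcript clusters were called in limma. Leaving out both arrays of a set, which also stands for leaving out a single array since its partner then adds nothing, gave 2 to 11 genes that fell, 1 to 5 over 2-fold, a median log2 fold change of −0.60 to −0.48 and 659 to 869 transcript clusters called. Fewer samples leave 1 set fewer in the fit. With biweight fold changes 5 genes were over 2-fold lower, with 934 transcript clusters called. With a limit of 1.5-fold 24 genes passed as lower, with 2495 transcript clusters called. The log2 fold changes of CENPA and CENPN, neither past the threshold, changed sign when a set was left out, ranging from −0.045 to 0.245 for CENPA and from −0.075 to 0.305 for CENPN, which was −0.01 without set 2. Quantile normalization, median centring, a trend and robust variances in eBayes, a test without the dimmest transcript clusters and an adjusted p under 0.05 were also tried. They gave 31 to 47 genes that fell and 0 that rose, with 839 to 890 transcript clusters called over 2-fold. The share of all transcript clusters that fell in these settings is not given here, so the counts of genes that fell have no background beside them. Averaging the transcript clusters of a gene changes nothing here, as each member has 1. All members lay above the background guide, and the number of sets limits the precision.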
